A study of Mus musculus with 9 samples.

Results

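The integrated stress response regulators were followed over the withdrawal of an oncogenic receptor from mouse leukaemia cells. They were 10 genes chosen by symbol, Atf4, Atf5, Ddit3, Cebpg, Trib3, Chac1, Ddit4, Sesn2, Nupr1 and Stc2, of 24756 rows in the count table. All 10 passed the filter on low counts that left 10215 tested genes. As background, the integrated stress response begins when kinases phosphorylate the translation factor eIF2alpha, which lowers general protein synthesis while the mRNA of the transcription factor ATF4 is translated more. ATF4 pairs with C/EBP proteins and turns on genes for amino acid supply together with regulators that feed back on the response. In leukaemia cells the pathway is known for sustaining amino acid synthesis and for promoting death when stress persists.

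The cells were an acute myeloid leukaemia line made from fetal liver cells of the mouse by retroviral transduction. In every group they carried a constitutive vector for MLL-AF9, with luciferase, and a tetracycline-responsive vector for FLT3-ITD, with DsRED, and they grew in medium with serum and 100 µM L-asparagine. The groups, of 3 libraries each, were cells kept in 1 µg/mL doxycycline so that FLT3-ITD was made (ON), and cells whose doxycycline had been washed out 24 h (OFF24) or 48 h (OFF48) earlier. Only ON held doxycycline, a drug that also inhibits mitochondrial ribosomes, so effects of the drug and of the transgene cannot be told apart. The line is a single one, and the labels do not tell whether the replicates were independent cultures, so the spread behind each p-value may be technical.

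Libraries were made from the 3' ends of mRNA and held 1329296 counts (OFF48 replicate 2) to 4038456 (ON replicate 2). Levels are given in CPM, counts relative to the scaled size of each library. A floor of 3 counts equals 0.743 to 2.26 CPM, by counting error only. Mouse Flt3 had 2 to 10 counts a library, and 3' counts do not check a transgene that ends in vector sequence. All 13 myeloid markers were detected. Of these, 10 rose at 24 h and 11 at 48 h, where 17.8% and 23.4% of tested genes were higher. The summed level of the markers was 2988 to 3218 CPM in ON, 5646 to 6049 in OFF24 and 8059 to 9214 in OFF48. Lymphoid, erythroid, megakaryocyte and mast cell, and hepatocyte and stromal lists summed to at most 8.46, 1.57, 21.7 and 8.75 CPM in any library, with Cd8a, Ncr1, Hbb-bs, Hbb-bt, Alas2, Epor, Ppbp, Cpa3, Fcer1a, Tpsb2, Alb, Ttr and Cdh5 at 0 counts. In such bulk samples, fewer cells of a type and less RNA per cell cannot be told apart, and the part of the myeloid marker change in the results below was not tested.

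Most regulators were lower at 24 h, by unlike amounts, and some of them changed again by 48 h. Of the 10, 9 were lower in OFF24 than in ON and 0 were higher, where 17.4% of all tested genes were lower and 17.8% higher. In OFF48, 8 were lower than in ON and 0 higher, against 23.9% lower and 23.4% higher among all tested genes. All OFF24 libraries lay below all ON libraries for 8 regulators and for 23.8% of tested genes, and all OFF48 libraries for 8 and 27.0%. The median log2 change was -1.40 at 24 h and -1.18 at 48 h, beside 0.03 and 0.01 over all tested genes. Both comparisons share the ON libraries. Between OFF24 and OFF48, 2 regulators rose and 2 fell, where 9.99% of tested genes were higher and 11.2% lower. The libraries of these groups did not overlap for 2 regulators higher at 48 h (18.2% of tested genes) and 3 lower (19.8%).

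Classed by these tests, Atf4, Ddit3, Trib3, Sesn2 and Nupr1 stayed low. They were below ON at both times and not called between 24 h and 48 h, a class of 5 regulators that held 63.6% of the 1781 genes that fell at 24 h. Atf5 recovered in part, being higher at 48 h than at 24 h and still below ON, as did 1.07% of the genes that fell at 24 h. Chac1 was higher at 48 h than at 24 h and no longer called against ON, the class named recovered, as were 5.50% of the genes that fell at 24 h. The names rest on the call against ON, not on the level: Chac1 stood at 65.7% of its ON level at 48 h and Atf5 at 66.4%, and for both all OFF48 libraries lay below all ON libraries. Ddit4 and Stc2 fell further, as did 14.4% of the genes that fell at 24 h. Cebpg was not called in any comparison. Without OFF48 replicate 3, only 3 of the 5 kept the class of genes that stayed low: Atf4 rose between 24 h and 48 h (log2 0.43, adjusted p = 0.0175, range over the alternatives 0.0175 to 0.774) and Sesn2 at 48 h was not called against ON.

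**Figure D1:**
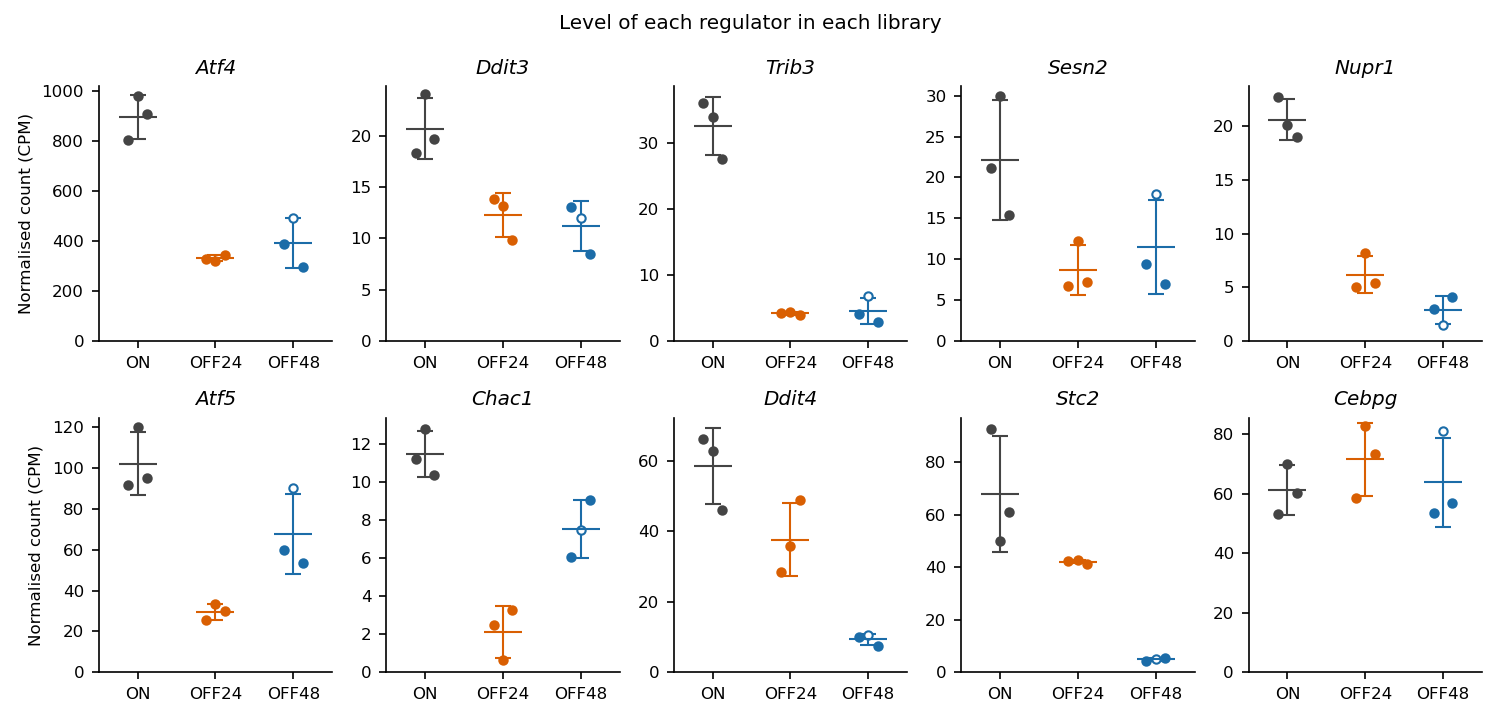
Normalised counts (CPM, linear axes from 0) of each regulator in the 9 libraries; points are libraries, bars the mean and SD of 3, and the open point is OFF48 replicate 2, the shallowest library. The first 5 panels stayed low at 48 h, Atf5 and Chac1 rose again, Ddit4 and Stc2 fell further, and Cebpg overlapped in all groups.

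The promoters of 4 regulators are shown because they hold the elements that the transcription factors named here are known to bind. ATF4 with a C/EBP partner binds a composite element written TGATGNAA. It was searched on both strands of the 300 bases from 250 before to 50 after each transcription start in RefSeq on GRCm38.p6, the build also called mm10. All 10 genes matched, with 11 windows since Atf5 has a pair of starts. Windows of Trib3, Chac1 and Nupr1 held it, which is 27.3% of the regulators' windows against 2.29% of 10239 windows of tested genes. In the first 3 sequences, capitals mark the element. In the Ddit4 window, which has no such match, capitals mark ACGTG, the core bound by hypoxia-inducible factors (HIF). It was present in 27.3% of the regulators' windows, those of Ddit3, Ddit4 and Nupr1, near the 26.5% of windows of tested genes.
Trib3 (chr2:152344011-152344310, minus strand): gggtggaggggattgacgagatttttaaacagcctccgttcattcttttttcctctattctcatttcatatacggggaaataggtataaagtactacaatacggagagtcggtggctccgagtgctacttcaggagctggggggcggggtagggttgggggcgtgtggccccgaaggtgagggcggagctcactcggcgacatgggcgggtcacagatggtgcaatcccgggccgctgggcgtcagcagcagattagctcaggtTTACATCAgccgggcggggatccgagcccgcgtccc
Chac1 (chr2:119350992-119351291, plus strand): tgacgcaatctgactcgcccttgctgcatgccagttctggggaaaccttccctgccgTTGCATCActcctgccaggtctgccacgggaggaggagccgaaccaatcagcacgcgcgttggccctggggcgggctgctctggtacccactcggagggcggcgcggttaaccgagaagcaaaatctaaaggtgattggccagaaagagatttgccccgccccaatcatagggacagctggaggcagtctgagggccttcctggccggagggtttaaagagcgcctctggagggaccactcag
Nupr1 (chr7:126625421-126625720, minus strand): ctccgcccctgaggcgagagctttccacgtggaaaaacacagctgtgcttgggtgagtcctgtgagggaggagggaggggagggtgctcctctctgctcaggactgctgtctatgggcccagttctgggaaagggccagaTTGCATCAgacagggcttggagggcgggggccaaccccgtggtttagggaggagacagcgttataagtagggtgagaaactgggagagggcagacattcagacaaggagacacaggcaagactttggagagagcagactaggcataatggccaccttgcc
Ddit4 (chr10:59951721-59952020, minus strand): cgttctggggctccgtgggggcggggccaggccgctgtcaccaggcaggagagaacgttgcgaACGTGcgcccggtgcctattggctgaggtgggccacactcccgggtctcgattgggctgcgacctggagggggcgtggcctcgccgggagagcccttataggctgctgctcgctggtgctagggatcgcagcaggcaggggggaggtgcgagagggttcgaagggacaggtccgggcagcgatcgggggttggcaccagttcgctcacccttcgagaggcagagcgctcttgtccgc

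The element stood 15 bases after the start in Trib3, 193 before it in Chac1 and 110 before it in Nupr1, in each on the strand opposite to the gene. Among tested genes of the ATF4 target enzyme, transporter and tRNA synthetase lists, 10 of 29 windows (25 genes) held it, or 34.5%. Of these 10, Asns, Slc7a11, Aars, Pycr1 and Iars are examples. The Nupr1 window also held CACGTG, the E-box that MYC binds, 225 bases before the start (10.4% of windows of tested genes), which overlaps a match to ACGTG. It further held the STAT element TTCNNNGAA 128 bases before the start (6.85% of windows), and Ddit3 held ACGTG 22 bases after its start. The windows of Atf4, Atf5, Cebpg, Sesn2 and Stc2 held none of the 4 motifs, which says only that these letters are not in them. Trib3, which stayed low, and Chac1, which rose again, both held a match, as TTACATCA and TTGCATCA, which differ in the variable letter. The part of the element in either pattern was not tested.

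**Figure D2:**
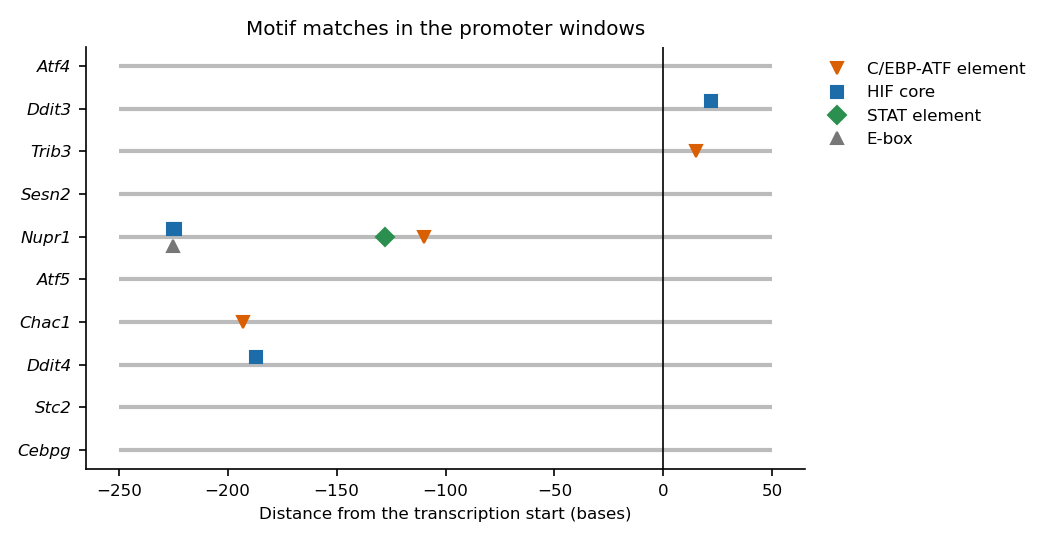
Matches to 4 motifs in the promoter windows of the 10 regulators, by distance in bases from the transcription start (0), over all RefSeq windows of each gene. Triangles pointing down mark the C/EBP-ATF element in Trib3, Chac1 and Nupr1, squares the HIF core in Ddit3, Nupr1 and Ddit4, and the diamond and the triangle pointing up the STAT element and the E-box in Nupr1.

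Atf4 (plus strand of chromosome 15, 80255184 to 80257541 in mm10) encodes the central transcription factor of the response. Its level was 802, 978 and 909 CPM in the ON libraries. It was 328, 321 and 343 CPM in OFF24 and 389, 493 and 294 CPM in OFF48. All 6 libraries without doxycycline lay below all 3 with it, and those of OFF24 lay between the extremes of OFF48. The log2 change was -1.44 ± 0.14 (SE) at 24 h and -1.20 ± 0.14 at 48 h, with edgeR adjusted p-values of 7.75e-07 and 2.12e-06. From 24 h to 48 h it was 0.23 (95% interval -0.07 to 0.53, adjusted p = 0.265).

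Atf5, a related transcription factor whose mRNA is also translated under stress and which acts in the mitochondrial stress response, lies on chromosome 7 from 44812256 to 44816658 on the minus strand. It stood at 91.6, 120 and 94.8 CPM in ON and at 25.5, 33.3 and 29.8 CPM in OFF24. In OFF48 it was back at 60.1, 90.0 and 53.4 CPM. The groups did not overlap at any step, although the highest OFF48 library, replicate 2, came close to the lowest of ON. Atf5 fell by 1.78 ± 0.17 (SE) on the log2 scale at 24 h (adjusted p = 5.02e-07) and rose by 1.13 ± 0.18 from 24 h to 48 h (adjusted p = 0.000251). By 48 h it remained below ON (log2 -0.65 ± 0.16, adjusted p = 0.003), at 66.4% of the ON level after 28.9% at 24 h. The rise was called under all 18 alternatives, with log2 changes of 0.94 to 1.3.

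Because Atf4 and Atf5 were read in the same libraries, their ratio does not depend on scaling between libraries. The log2 ratio of Atf5 to Atf4 counts was -3.68, -3.27 and -3.53 in OFF24 and -2.70, -2.46 and -2.46 in OFF48. The OFF48 ratios were above the ON ratios too, which ran from -3.26 to -3.03. The mean was 0.96 higher in OFF48 than in OFF24. The pair was chosen after the values were seen, and an exact permutation test of 3 against 3 libraries cannot give a p below 0.1, the value it gave, so the ratio is only a description.

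Ddit3 encodes CHOP, a C/EBP family factor that promotes cell death under lasting stress, and lies at 127290774 to 127296288 of chromosome 10 (plus strand). It stood at 18.4, 24.1 and 19.7 CPM in ON, at 13.8, 13.2 and 9.83 CPM in OFF24 and at 13.1, 12.0 and 8.46 CPM in OFF48. Both groups without doxycycline lay below ON and overlapped each other. The log2 change was -0.77 ± 0.21 (SE) at 24 h and -0.92 ± 0.22 at 48 h (edgeR adjusted p = 0.00644 and 0.00163). The last 68 bases of Ddit3 overlap the end of Mars, the methionyl-tRNA synthetase gene on the minus strand, and the strand setting of the counting is not given in the sources used here. Mars had log2 changes of -0.66 ± 0.18 and -0.91 ± 0.19, so reads of the pair cannot be told apart where counting ignored strand, and the level of Ddit3 is uncertain.

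Cebpg encodes C/EBPγ, a partner of ATF4 in binding DNA, and lies on chromosome 7 from 35046422 to 35056573 on the minus strand. Its levels of 53.3, 70.0 and 60.5 CPM in ON, 58.5, 82.9 and 73.6 in OFF24 and 53.7, 81.0 and 56.9 in OFF48 overlapped throughout. The log2 change against ON was 0.23 at 24 h (95% interval -0.09 to 0.56, adjusted p = 0.257) and 0.01 at 48 h (-0.33 to 0.35, adjusted p = 0.963). A fall of the size of that of Atf4 lay outside both intervals. It was called in none of the 18 alternatives of any comparison.

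Trib3, a pseudokinase gene induced by ATF4 and CHOP whose product restrains ATF4, lies on chromosome 2 from 152337422 to 152344032 on the minus strand. It stood at 36.0, 33.9 and 27.6 CPM in ON, at 4.18, 4.39 and 3.87 CPM in OFF24 and at 4.03, 6.75 and 2.92 CPM in OFF48. The highest value without doxycycline was thus far under the lowest in ON. The fall was 7.83-fold at 24 h, a log2 change of -2.97 ± 0.23 (SE, adjusted p = 1.98e-08), and 8.0-fold at 48 h (adjusted p = 8.46e-09). From 24 h to 48 h the log2 change was -0.03 (95% interval -0.76 to 0.69). Counts behind these values were 10, 14 and 13 in OFF24 and 12, 9 and 10 in OFF48.

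Chac1, which encodes an enzyme that breaks down glutathione and is induced by ATF4, lies at 119351229 to 119354381 of chromosome 2 (plus strand). In ON it stood at 11.2, 12.8 and 10.4 CPM, in OFF24 at 2.51, 0.628 and 3.28 CPM and in OFF48 at 6.04, 7.50 and 9.04 CPM. The 3 groups did not overlap, and OFF48 lay between the others. The values rest on few reads, with counts of 6, 2 and 11 in OFF24 and 18, 10 and 31 in OFF48. Chac1 fell by 2.42 ± 0.35 (SE) on the log2 scale at 24 h (edgeR adjusted p = 3.3e-05) and rose by 1.82 ± 0.40 from 24 h to 48 h (adjusted p = 0.00274), a rise called under all 18 alternatives. Against ON it stood at log2 -0.60 at 48 h (95% interval -1.20 to -0.0043, adjusted p = 0.0907), so the recovery is not shown to be complete.

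The log2 ratio of Chac1 to Trib3 counts, a description with the same limits, was -0.74, -2.81 and -0.24 in OFF24 and 0.59, 0.15 and 1.63 in OFF48, after -1.68, -1.41 and -1.41 in ON. The mean was 2.05 higher in OFF48 than in OFF24, and the libraries of these groups did not overlap.

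Nupr1, which encodes a small chromatin-associated protein of the stress response, lies on chromosome 7 from 126623249 to 126630861 on the minus strand, which extends upstream of the RefSeq start used for its window. It went from 22.7, 20.1 and 19.0 CPM in ON to 5.02, 8.16 and 5.36 CPM in OFF24 and 3.02, 1.5 and 4.08 CPM in OFF48. Each group lay below the one before with no overlap. Counts were 12, 26 and 18 in OFF24 and 9, 2 and 14 in OFF48, so OFF48 replicate 2 was under the floor of 3 counts. The log2 change against ON was -1.72 ± 0.23 (SE) at 24 h and -2.68 ± 0.28 at 48 h (edgeR adjusted p = 1.39e-05 and 2.14e-07). From 24 h to 48 h it was -0.96 (95% interval -1.68 to -0.24) and just missed the threshold (adjusted p = 0.0548). It passed with upper quartile scaling (0.0454) and with limma on the deposited log2 values (0.0462), in a range of 0.0454 to 0.252.

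**Figure D3:**
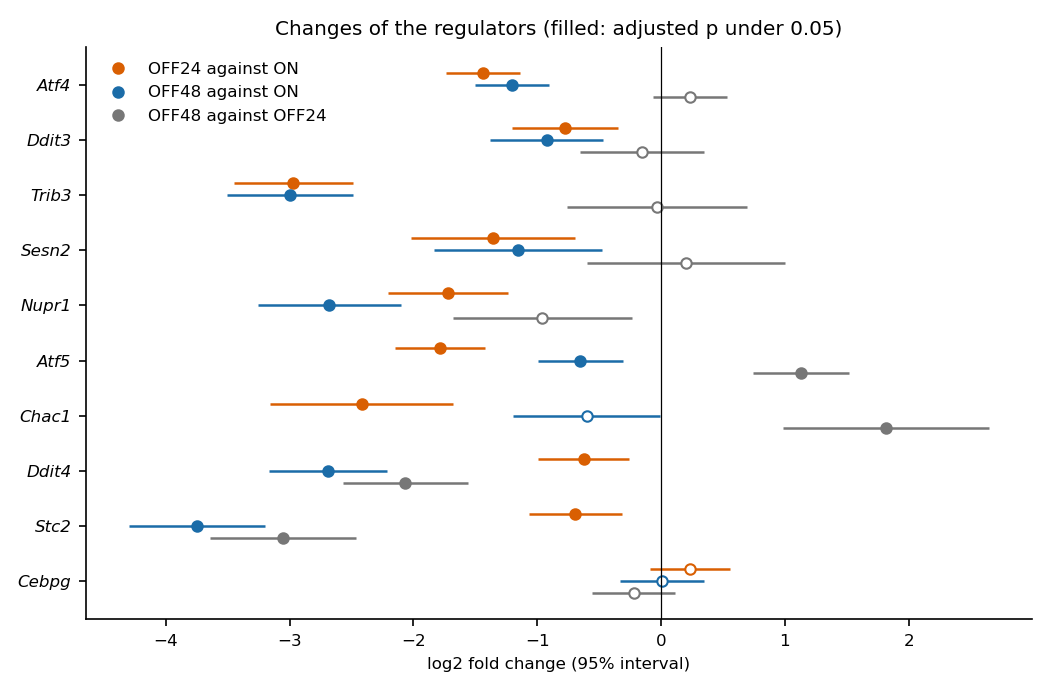
Log2 fold changes of the 10 regulators with 95% intervals for OFF24 against ON, OFF48 against ON and OFF48 against OFF24; filled points have an edgeR adjusted p under 0.05. The grey points of Atf5 and Chac1 lie above 0, at 1.13 and 1.82, and those of Ddit4 and Stc2 below it, at -2.07 and -3.05.

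Sesn2 and Ddit4 both encode proteins that hold back mTORC1, the kinase complex that drives growth when amino acids are ample. Sesn2, a leucine-binding sestrin on chromosome 4 from 132492032 to 132510501 on the minus strand, stood at 21.2, 30.0 and 15.4 CPM in ON. It was at 6.69, 12.2 and 7.15 CPM in OFF24 and at 9.39, 18 and 7.0 CPM in OFF48. OFF24 lay below ON, while OFF48 replicate 2 reached into the range of ON. The log2 change was -1.35 ± 0.31 (SE) at 24 h and -1.15 ± 0.32 at 48 h (edgeR adjusted p = 0.00334 and 0.00722). The call at 48 h was lost without OFF48 replicate 3 (log2 -0.85, adjusted p = 0.0587) and on the deposited log2 values (adjusted p = 0.0788), in a range of 2.26e-06 to 0.0788.

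Ddit4, which encodes REDD1 and is induced by ATF4, by HIF and by glucocorticoids, lies on chromosome 10 from 59949669 to 59951834 on the minus strand. It stood at 66.3, 62.9 and 46.2 CPM in ON, at 28.4, 35.8 and 48.9 CPM in OFF24 and at 10.1, 10.5 and 7.58 CPM in OFF48. OFF24 overlapped ON, and all of OFF48 lay far below both. The log2 change was -0.63 ± 0.17 (SE) at 24 h (edgeR adjusted p = 0.0092) and -2.07 ± 0.24 from 24 h to 48 h (adjusted p = 5.83e-06). The early fall was not called on the deposited log2 values (adjusted p = 0.0862, range over the alternatives 7.26e-05 to 0.0862), whereas the later one was called under all 18 alternatives.

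Stc2, which encodes stanniocalcin 2, a secreted glycoprotein induced by ATF4 and by hypoxia, lies on chromosome 11 from 31357307 to 31370074 on the minus strand. Its ON libraries were spread, at 92.6, 49.9 and 61.2 CPM, and OFF24 was tight just under them at 42.2, 42.7 and 41.4 CPM. In OFF48 it stood at 4.36, 5.25 and 5.54 CPM, from counts of 13, 7 and 19. The log2 change was -0.69 ± 0.18 (SE) at 24 h (edgeR adjusted p = 0.00584) and -3.05 ± 0.28 from 24 h to 48 h (adjusted p = 3.82e-07), which left 7.44% of the ON level. On the deposited log2 values the early fall was not called (adjusted p = 0.0626, range over the alternatives 5.22e-06 to 0.0626), and the later one was called under all 18 alternatives.

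HIF target genes moved between the 2 times in the same direction as Ddit4 and Stc2. Of 15 tested, 14 were lower at 48 h than at 24 h and 1 was higher, where 11.2% of tested genes were lower and 9.99% higher. The median of the 15 was log2 -2.12, beside 0.0050 over all tested genes. Among them, Pdk1, a kinase that limits pyruvate use in mitochondria, went from 131 ± 11.6 CPM (SD, n = 3) in OFF24 to 18.3 ± 2.39 in OFF48, and Pgk1, a glycolytic enzyme, from 1606 ± 65.6 to 324 ± 57.4. At 24 h, 10 of the 15 were higher than in ON and 2 lower (median log2 0.66), beside 17.8% and 17.4% of tested genes. At 48 h 12 were lower than in ON and 1 higher, beside 23.9% and 23.4%. The part of HIF in the later fall of Ddit4 and Stc2 was not tested.

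Several regulators were highest in the same library of a group. OFF48 replicate 2, the library of lowest total, was the highest of its group for 6 of the 10 regulators, Atf4, Atf5, Cebpg, Trib3, Ddit4 and Sesn2. ON replicate 2 and OFF24 replicate 2 were also the highest of their groups for 6 regulators each. The share of all tested genes that were highest in these libraries was not counted, so these counts only describe the libraries. Over all tested genes, too, the replicate 2 libraries of the 3 groups deviated together (correlations of 0.18 to 0.41). Without any one of them, the regulators' calls were the same. After the group means were removed, log2 levels over the 9 libraries correlated between some pairs. Examples were Atf5 and Cebpg (Pearson r = 0.93), Atf5 and Sesn2 (0.92), Trib3 and Sesn2 (0.84) and Atf4 and Atf5 (0.83). The values only describe genes read in the same libraries. Nupr1 went the other way, with r of -0.85 with Atf4, -0.68 with Trib3 and -0.53 with Atf5. Some pairs of Stc2 and of Chac1 were negative too, such as those with Ddit3 (-0.53 and -0.43). The values of Nupr1 lean on OFF48 replicates 2 and 3, where Nupr1 deviated by log2 -0.64 and 0.50 and Atf4 by 0.36 and -0.38. In these libraries Atf5 deviated by 0.44 and -0.31 and Sesn2 by 0.73 and -0.56. Nupr1 had only 2 counts in OFF48 replicate 2.

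The genes whose levels over the 9 libraries were most like those of Atf4 were Rae1, Shisa5, Clns1a, Ftsj3 and Psmd3, with Pearson r of log2 CPM from 0.98 to 0.99 among 7727 candidates. For Trib3 they were Lap3, Lyar, Psmd3, Mcm3ap and Ndufa12 (0.99 each), and for Ddit4 Lonp1, Suclg2, Tpm4, Tmsb10 and Nampt (0.99 each). By Spearman correlation, 0 of the 5 were shared for Atf4 and for Trib3 and 1, Nampt, for Ddit4.

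Upstream of ATF4, genes of the eIF2 machinery fell in part. Of 15 tested, 7 were lower at 24 h and 0 higher (median log2 -0.35), and 8 were lower and 3 higher at 48 h (median -0.53). Among all tested genes, 17.4% were lower and 17.8% higher at 24 h, and 23.9% and 23.4% at 48 h. Eif2s1, which encodes eIF2alpha itself, fell by 1.16 ± 0.16 (SE) on the log2 scale at 24 h, and Eif2b3 and Eif2b5, subunits of its exchange factor eIF2B, fell by 1.21 ± 0.21 and 0.81 ± 0.22. Ppp1r15a, the stress-induced phosphatase subunit that reverses the phosphorylation, fell by 0.80. Of the 4 kinases, Eif2ak2 was lower at 24 h (log2 -0.51) and at 48 h (-0.73). Eif2ak1 and Eif2ak3 were not called at 24 h (0.21 and 0.16) and were higher at 48 h (0.61 and 0.71), and Eif2ak4 was not called (-0.14 and -0.53). These are mRNA levels, and phosphorylation of eIF2alpha was not measured.

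Downstream, most genes that supply amino acids were lower at both times. The counts stand beside 17.4% of all tested genes lower and 17.8% higher at 24 h, and 23.9% and 23.4% at 48 h. Of 13 tested enzymes, 11 were lower at 24 h and 1 higher (median log2 -1.23), and 12 were lower at 48 h (median -1.11). Of 9 tested transporters, 7 and then 6 were lower and 0 higher (medians -1.19 and -1.04). All 13 tested synthetases and exporters of tRNA were lower at both times (medians -1.05 and -1.15). In these lists, which were drawn up with earlier results of these data known, Asns, which makes asparagine, stood at 81.1 ± 8.5 CPM (SD, n = 3) with doxycycline, 34.0 ± 2.9 after 24 h and 38.0 ± 2.85 after 48 h.

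Some enzymes and transporters also changed again by 48 h. Mthfd2, a mitochondrial folate enzyme, rose from 24 h to 48 h (log2 0.62 ± 0.11, SE, edgeR adjusted p = 0.000406), as did Slc3a2, the shared chain of several carriers (0.43 ± 0.13, adjusted p = 0.0189). The call of Slc3a2 was lost under 4 of 18 alternatives, without OFF24 replicate 2, OFF24 replicate 3 or OFF48 replicate 2 and on the deposited log2 values (adjusted p of 0.00388 to 0.0807). Slc7a11, the cystine carrier, rose too (0.83). Phgdh, which opens serine synthesis, fell further (log2 -2.20 ± 0.22, adjusted p = 5.57e-07), as did Psat1 of the same pathway (-0.96 ± 0.11) and Slc7a5, a leucine carrier (-0.58 ± 0.19). In all, 3 enzymes fell and 1 rose between the times, and 2 transporters fell and 2 rose, or 1 and 1 without OFF48 replicate 2. Of all tested genes, 11.2% were lower and 9.99% higher at 48 h than at 24 h.

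**Figure D4:**
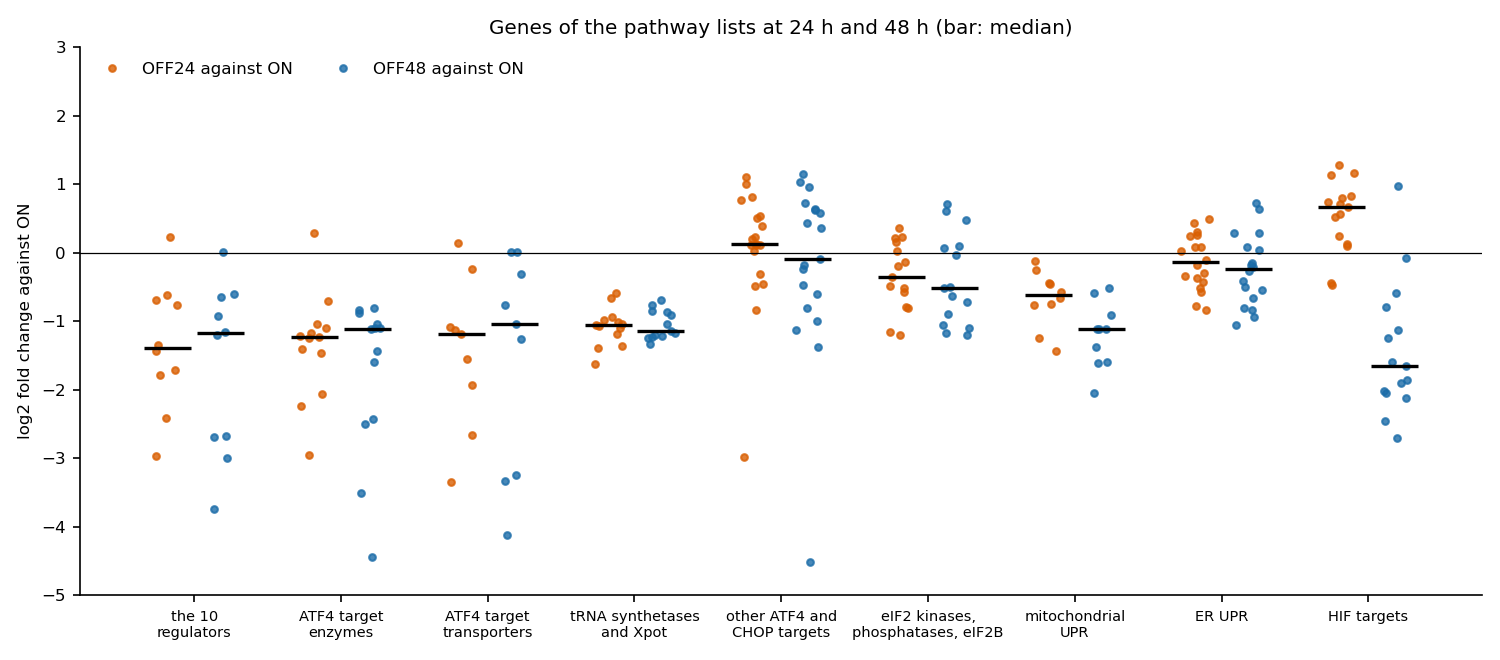
Log2 fold changes against ON of every tested gene in 8 pathway lists and of the 10 regulators, at 24 h and at 48 h, with the median as a bar. Enzymes, transporters and tRNA synthetases have medians of -1.23 to -1.04 at both times, while HIF targets have a median of 0.66 at 24 h and -1.66 at 48 h.

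Targets of ATF4 and CHOP outside amino acid supply went in both directions. Of 19 tested, 4 were lower and 6 higher at 24 h (median log2 0.13), and 7 were lower and 8 higher at 48 h. Among all tested genes, 17.4% were lower and 17.8% higher at 24 h, and 23.9% and 23.4% at 48 h. Gdf15, a secreted stress cytokine, fell to 1.55 ± 0.563 CPM (SD, n = 3) in OFF24 after 12.8 ± 0.639 in ON and had counts of 4, 0 and 0 in OFF48. Rab32, a small GTPase of organelle traffic, rose from 73.5 ± 7.56 to 158 ± 7.49 CPM. Ero1l, an oxidase of the endoplasmic reticulum (ER), was not called at 24 h (log2 0.13 ± 0.10) and was lower at 48 h (-1.14 ± 0.11).

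Other stress branches differed in their counts, which stand beside 17.4% of tested genes lower and 17.8% higher at 24 h and 23.9% and 23.4% at 48 h. Of 10 genes of the mitochondrial unfolded protein response, with which ATF5 is linked, 8 were lower at 24 h and 9 at 48 h, and 0 were higher (medians -0.62 and -1.12). From 24 h to 48 h, when Atf5 rose, 5 of them were lower and 0 higher, where 11.2% of tested genes were lower and 9.99% higher. The 5 included the chaperonin genes Hspd1 (log2 -0.61 ± 0.12, SE) and Hspe1 (-1.03 ± 0.13). ER genes of the XBP1 and ATF6 branches had 7 of 18 lower and 1 higher at 24 h and 8 and 3 at 48 h (medians -0.15 and -0.24). Hspa5, the main ER chaperone, stood at log2 -0.43 ± 0.11 and -0.83 ± 0.11. Of 13 p53 targets, another source of Sesn2 induction, 5 were lower and 3 higher at 24 h and 9 and 2 at 48 h, with Cdkn1a, a cell cycle inhibitor, at log2 -1.13 ± 0.15 and -2.13 ± 0.17.

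Counts for relatives and partners of the regulators are only a description. They stand beside 17.4% of tested genes lower and 17.8% higher at 24 h, and 23.9% and 23.4% at 48 h. Trib1, a relative of Trib3, rose to 18.8 ± 0.526 CPM (SD, n = 3) in OFF24 after 6.57 ± 3.48 in ON (log2 1.57 ± 0.27, SE, edgeR adjusted p = 0.000174). Sesn1 and Nupr1l, the other 2 tested relatives, were not called. Of 16 basic leucine zipper factors that could pair with ATF4 or its relatives, 3 were lower and 4 higher at 24 h, and 3 lower and 6 higher at 48 h, with 9 and 7 not called. The myeloid factors Cebpa, Cebpd and Cebpe were among the higher ones at both times, and Jun rose at 48 h (log2 1.77 ± 0.16, adjusted p = 6.55e-08). Of 9 other restrainers and sensors of mTORC1, 1 was lower and 2 higher at 24 h, and 2 and 2 at 48 h, with 6 and 5 not called. Deptor, one of them, rose (log2 0.89 ± 0.23 and 1.12 ± 0.23). Myc, which cooperates with ATF4 at many of these genes, fell by 1.41 ± 0.22 at 24 h.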

How the data were processed

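Gene expression was measured in 9 libraries of 3' mRNA (Lexogen QuantSeq kit, per the labels' protocols). The deposited table holds raw read counts per gene symbol. The submitters' processing notes name HISAT2 2.0.4, Subread 1.5.0-p3 with featureCounts, cutadapt 1.5 and mm10, without roles. The strand setting and annotation were not given. A second table deposited by the authors holds log2 values whose name points to voom and limma, and served as an alternative.

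Counts were tested with edgeR 4.0.16 (R 4.3.3): filterByExpr, TMM scaling, and a robust quasi-likelihood fit with 1 mean per group to all libraries, checked on simulated data. Benjamini-Hochberg adjustment ran over 10215 genes at 0.05. The SE is the log2 change over the root of F, and 95% intervals follow from it. Correlations used log2 CPM with a prior count of 2. Alternatives were other scalings, no filter, DESeq2 1.42.0, limma 3.58.1, the replicate number as a block and omission of each library.

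Positions come from GENCODE M21 (GRCm38). The last 400 bases of each regulator were compared with all transcripts (blastn 2.17.0, identity of at least 95% over 50 bases), and a match was found for Ddit3 alone. No regulator had the same counts as another row. The regulators, lists, tests and motifs were chosen with earlier results of these data known. Named genes are all regulators, up to 4 per list with the smallest p, the 5 most like Atf4, Trib3 and Ddit4 (mean of at least 10 CPM), and Phgdh, Asns and Myc. Others, such as Mars, the eIF2alpha kinases, Ppp1r15a and Slc7a11, were named after their values were seen.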

Additional observations from a re-analysis of the deposited data

Results flagged for a closer look

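The effects of withdrawal at 24 h and at 48 h differed for 4 regulators, by the test of OFF48 against OFF24. Atf5 was higher at 48 h by 1.13 on the log2 scale and Chac1 by 1.82, while the change was -2.07 for Ddit4 and -3.05 for Stc2. Among all tested genes, 9.99% were higher and 11.2% lower at 48 h than at 24 h. Every OFF48 library lay on the named side of every OFF24 library for each of these 4 genes. The same held for Nupr1, which was not called, and for 18.2% (higher) and 19.8% (lower) of tested genes. Since the 4 were picked by a test on these libraries, the lack of overlap is no further support.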

How the results depend on the processing

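The call of the regulators held in 533 of 540 tests under the alternatives, and 0 called changes reversed direction. The 7 that changed their side of the threshold concerned Atf4, Sesn2, Nupr1, Ddit4 and Stc2 and are given with those genes. Changes that were not called could differ in sign, as for Trib3 from 24 h to 48 h (log2 -0.25 to 0.27 over the alternatives). With limma on the deposited log2 values, the class that stayed low held 3 regulators, without Sesn2 and Nupr1. The class that fell further then held 1, Nupr1, because the falls of Ddit4 and Stc2 at 24 h were not called. With 1 library left out at a time, the class that stayed low held 3 to 5 and the class that recovered in part 1 to 2, and the class sizes without OFF48 replicate 3 were 3 and 2. The cause was not tested. Same-numbered libraries of different groups deviated together in 5 of 9 pairs (correlation over 0.1). All 3 replicate 2 pairs were among them (0.18 to 0.41), and the 3 of 9 libraries that correlated best with their own number were the replicate 2 libraries. Since the other pairs reached 0.1 only in part, the numbers were not taken as pairs. With the replicate block, 4200, 5189 and 2701 genes were called in place of 3603, 4841 and 2160, and the regulators' calls were the same. Upper quartile scaling called 39.9% of changed genes higher between 24 h and 48 h, against 47.2%. Without OFF48 replicate 2, added after seeing the data, 94 of 102 list counts stayed within 1.5 times. The 102 include lists with 0 tested genes, erythroid and hepatocyte and stromal, and other counts of 0. A count of 0 in both fits was taken as unchanged, so the 94 overstates how far the lists held. With the variable letter of the C/EBP-ATF element fixed as C, 2 regulators, Chac1 and Nupr1, held it in place of 3, and Trib3 did not. Chac1, Trib3 and Nupr1 rest on few reads at both times after withdrawal, which limits their precision. Stc2 (7 to 19 counts a library) and Ddit4 (14 to 30) do so at 48 h. Ddit3 had 16 to 42 counts a library after withdrawal and Sesn2 16 to 39.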
